A study of Mus musculus with 22 samples.

Results

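The immunoproteasome and class I loading genes were measured in the terminal ileum of mice of the NOD strain, which is inbred and prone to autoimmune diabetes. The set was given as 10 gene symbols: Psmb8, Psmb9, Psmb10, Psme1, Psme2, Tap1, Tap2, Tapbp, Nlrc5 and B2m. Each gene was read from the probe set annotated to its symbol alone, and from the one of highest mean over the 22 arrays where it had several. By that rule 9 of the 10 were measured, of 18193 genes in all. The probe set for Psme2 is annotated to Psme2b as well and is given by its own name, outside the counts.

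The 22 arrays, 1 sample each, came from PAT mice (3 females and 5 males), STAT mice (3 females and 3 males) and control mice (3 females and 5 males), all NOD. PAT stands for pulses of antibiotic at therapeutic doses, and STAT for sub-therapeutic antibiotic. Drugs, doses and ages are not stated in the labels, which also do not tie each sample to an animal of its own, so p-values reflect the spread among these samples alone, which could be technical. Values are log2 expression per probe set as deposited, so a difference of 1 is a doubling, and levels are not compared between genes. Markers of the labelled tissue were bright: Fabp6, the ileal bile acid binding protein, averaged 14.44 in PAT, 14.18 in STAT and 14.22 in control arrays, and Vil1, a microvillus protein of enterocytes, averaged 12.79, 12.57 and 12.78 in PAT, STAT and control arrays.

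Some arrays stood apart. STAT males 2 and 3 had beta-actin 3′ minus 5′ probe set differences, a sign of RNA quality, of 0.59 and 0.60 on the log2 scale, against 0.28 to 0.42 on all other arrays. Their epithelial markers deviated by -0.34 and -0.24 on average from the mean over all arrays. PAT female 1 had the highest mean deviation of B cell markers, 1.81, against at most 0.17 on all other arrays. The counts of calls and the counterpart tests of STAT are given with and without STAT males 2 and 3, and those of PAT averaged over the sexes with and without PAT female 1.

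Every nucleated cell cuts its own proteins into peptides with the proteasome and shows some of them to CD8 T cells on MHC class I molecules. When cells see interferon, 3 catalytic subunits of the proteasome core are replaced by PSMB8, PSMB9 and PSMB10, and the PA28 activator made of PSME1 and PSME2 caps the core. The TAP1 and TAP2 transporter carries peptides into the endoplasmic reticulum, tapasin (Tapbp) holds the empty heavy chain beside it, beta-2 microglobulin (B2m) is the light chain of every class I molecule, and NLRC5 is a transactivator of class I genes. Gut epithelium carries this machinery at rest, and interferon raises it further.

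Of the 10 genes, 5 lie on mouse chromosome 17, and Psmb9, Tap1, Psmb8 and Tap2 follow one another there. Tapbp is 18 protein-coding genes away on the same chromosome. Psme1 and Psme2 are on chromosome 14, Psmb10 and Nlrc5 on chromosome 8 and B2m on chromosome 2. RefSeq promoter entries (build GRCm38.p6, the C57BL/6J genome rather than NOD) were matched for 8 of the 10 genes, with none for Nlrc5 or Tap2. The 250 bases before each start were searched on both strands for GAAANNGAAA, a core of the interferon response element, TTCNNNGAA, a palindrome bound by the signal transducer family to which Stat2 belongs (no relation to the treatment name), and CCAAT, a box bound by NF-Y. The 3 sequences below are shown because Psmb8 had the greatest difference of the set, B2m was the one matched gene with the first motif, and Psmb9 and Tap1 start back to back and share a promoter. They are written 5′ to 3′ on the plus strand, with motif matches in capitals.
Psmb8, chr17:34197945-34198194: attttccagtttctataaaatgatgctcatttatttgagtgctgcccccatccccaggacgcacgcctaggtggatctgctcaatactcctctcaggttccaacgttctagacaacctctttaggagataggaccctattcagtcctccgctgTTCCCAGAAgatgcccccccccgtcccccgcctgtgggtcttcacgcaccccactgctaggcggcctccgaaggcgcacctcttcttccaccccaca
B2m, chr2:122147437-122147686: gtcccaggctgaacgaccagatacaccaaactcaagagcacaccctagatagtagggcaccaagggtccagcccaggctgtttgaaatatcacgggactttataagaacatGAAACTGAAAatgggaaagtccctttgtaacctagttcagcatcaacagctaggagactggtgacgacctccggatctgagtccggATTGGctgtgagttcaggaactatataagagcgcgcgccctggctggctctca
Psmb9 to Tap1, chr17:34187331-34187555: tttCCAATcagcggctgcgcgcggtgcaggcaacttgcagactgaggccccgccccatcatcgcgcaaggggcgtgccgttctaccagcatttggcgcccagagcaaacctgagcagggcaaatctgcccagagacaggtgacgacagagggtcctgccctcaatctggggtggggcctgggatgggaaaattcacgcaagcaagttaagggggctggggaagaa

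In the Psmb8 window TTCNNNGAA matched 97 bases before the start, a motif found in 7.02% of 32851 promoter windows of the same length. In the B2m window GAAANNGAAA matched 139 bases before the start, and CCAAT matched on the other strand 53 bases before it. Those motifs were found in 2.98% and 33.8% of all windows. The stretch between Psmb9 and Tap1 held 1 CCAAT, 8 bases before the Psmb9 start and 222 bases before the Tap1 start, and the Tapbp window held 2. None of the 3 motifs matched in the windows of Psmb10, Psme1 or Psme2. A match describes the letters and is not evidence of a bound site.

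PAT ileum had lower transcript levels of 8 of the 9 measured genes than control ileum, averaged over the sexes. All 3 inducible catalytic subunits, Psme1, both chains of the transporter, Tapbp and B2m fell, by between 0.77 (Psmb8) and 0.23 (B2m) on the log2 scale, while Nlrc5 was dim and had no call. The test was limma over 18193 genes, with a call at a Benjamini-Hochberg adjusted p under 0.05. In that comparison 11.0% of all genes were called in either direction, 6.38% lower and 4.61% higher. The median difference was -0.34 over the 9 genes and -0.005 over all genes. Without PAT female 1 the count was 7, with B2m the one lost. Ranked by p, Psme1 stood at 55, Tapbp at 113, Psmb9 at 154, Psmb10 at 183 and Psmb8 at 201 of 18193. The tissue was measured whole, so fewer cells of a type and less RNA per cell cannot be told apart.

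Psmb8 (LMP7) is the inducible subunit that takes the place of Psmb5. Its log2 level was 9.46, 8.80 and 8.44 in PAT females and 8.64, 8.64, 8.46, 8.50 and 8.81 in PAT males. In STAT arrays it was 9.44, 9.45 and 9.18 in females and 9.13, 8.70 and 8.78 in males. Control females gave 9.35, 9.72 and 9.88, and control males 9.31, 9.91, 9.13, 9.28 and 9.31. In males all 5 PAT arrays lay under all 5 control arrays, and in females 1 PAT array, replicate 1, overlapped with the controls. PAT differed from control by -0.77 ± 0.13 (SE; 95% interval -1.04 to -0.49), which is 1.7-fold lower, with a limma adjusted p of 0.00095. Without PAT female 1 the difference was -0.91, the greatest among the runs that left out 1 array.

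Psmb9 (LMP2) replaces Psmb6. It read 9.20, 9.04 and 8.82 in PAT females and 8.53, 8.56, 8.74, 8.52 and 8.77 in PAT males. In STAT it read 9.23, 9.03 and 8.97 in females and 9.07, 8.80 and 9.01 in males. Controls read 9.24, 9.42 and 9.56 in females and 9.21, 9.53, 9.01, 9.25 and 9.14 in males. Within each sex every PAT array was below every control array. The difference from control was -0.50 ± 0.08 (SE), 1.41-fold lower, with a limma adjusted p of 0.00053.

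Psmb10 (MECL-1) replaces Psmb7. Its levels were 11.17, 11.22 and 11.00 in PAT females and 10.95, 10.85, 10.99, 10.83 and 10.83 in PAT males. STAT females had 11.50, 11.32 and 11.32, and STAT males 11.48, 11.08 and 11.09. Control females had 11.48, 11.48 and 11.56, and control males 11.34, 11.71, 11.19, 11.37 and 11.33. Here too PAT and control arrays did not overlap within either sex. PAT differed from control by -0.44 ± 0.07 (SE), 1.36-fold lower, with a limma adjusted p of 0.00078.

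Psme1 encodes the alpha subunit of the PA28 activator. It measured 11.48, 11.40 and 11.43 in PAT females and 11.44, 11.34, 11.50, 11.41 and 11.36 in PAT males. It measured 11.73, 11.73 and 11.63 in STAT females and 11.65, 11.52 and 11.60 in STAT males. Controls measured 11.78, 11.78 and 11.81 in females and 11.74, 11.88, 11.70, 11.73 and 11.69 in males. All 8 PAT arrays lay below all 6 STAT arrays and all 8 control arrays. Of the set, only Psme1 and Tapbp separated the 8 PAT from the 8 control arrays fully, as 1.15% of all genes did with PAT lower. The change of Psme1 was small, -0.34 ± 0.05 (SE; 1.27-fold lower), with the lowest adjusted p of the set, 8.4e-05 by limma.

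The probe set annotated to both Psme2b and Psme2, of which Psme2 encodes the beta subunit of PA28, read 12.19, 12.05 and 11.99 in PAT females and 11.82, 11.76, 11.94, 11.74 and 11.81 in PAT males. STAT arrays read between 11.88 and 12.18, and control arrays between 11.97 and 12.31. PAT differed from control by -0.25 ± 0.06 (SE), with an adjusted p of 0.012 by limma over 45037 probe sets. Which of the genes gave the signal cannot be told from this probe set.

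**Figure D1:**
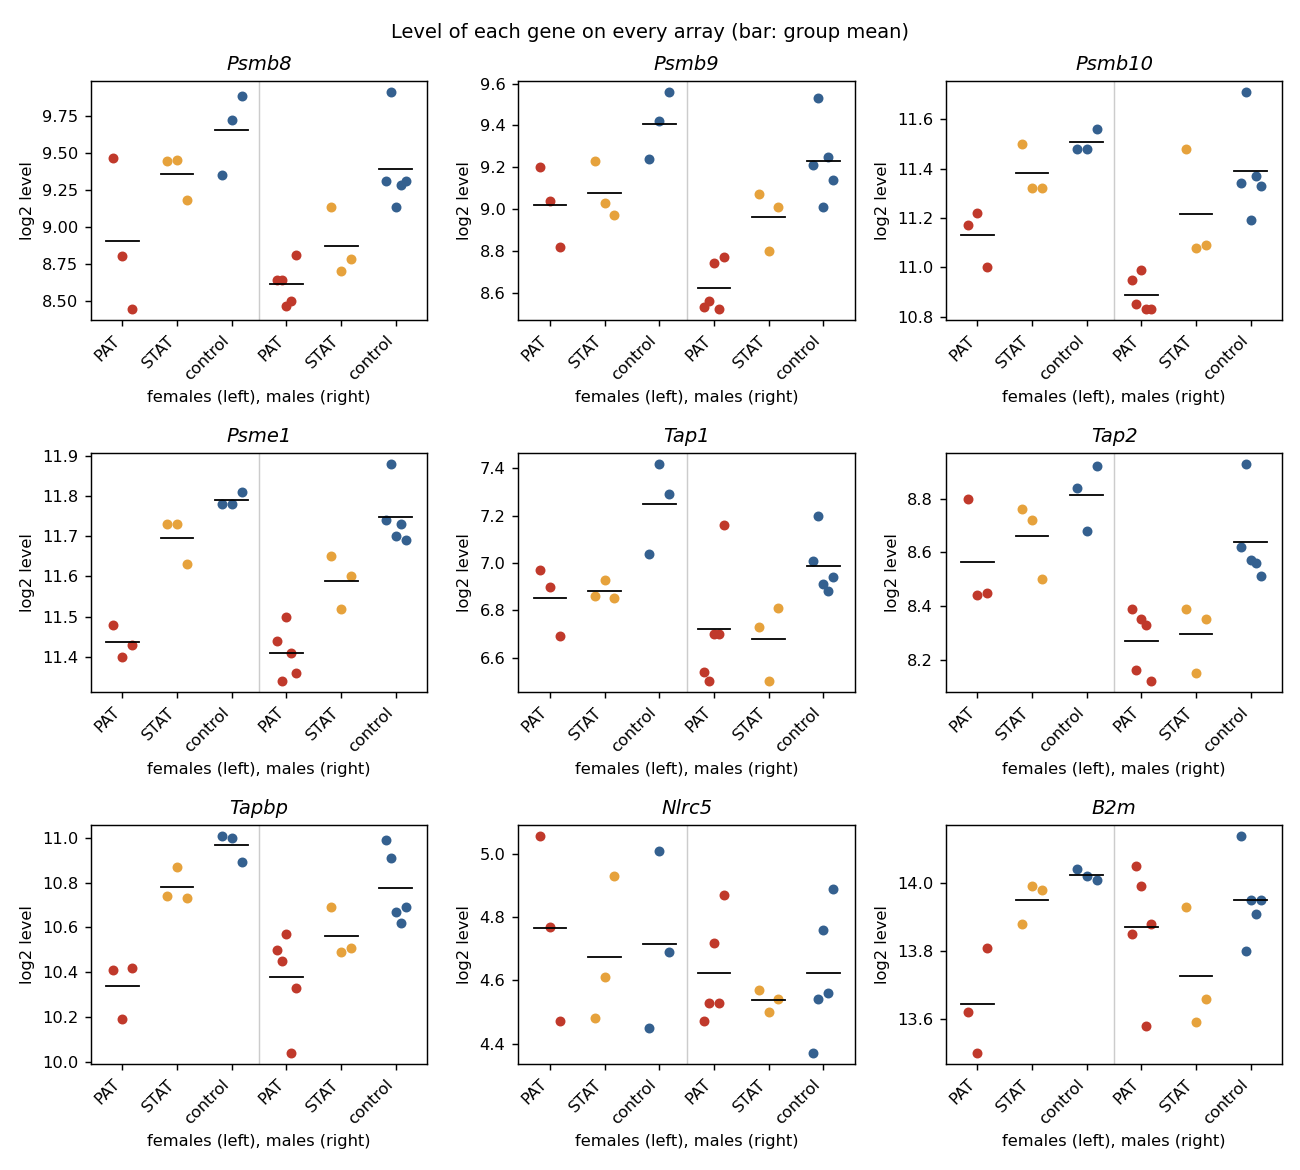
Log2 expression of the 9 measured genes on each of the 22 arrays. Females are at the left and males at the right, each in the order PAT, STAT and control. Psme1 and Tapbp had no overlap between PAT and control arrays, and Nlrc5 lay between 4.37 and 5.06 in every group.

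Tap1, which with Tap2 forms the peptide transporter, gave 6.97, 6.90 and 6.69 in PAT females and 6.54, 6.50, 6.70, 6.70 and 7.16 in PAT males. It gave 6.86, 6.93 and 6.85 in STAT females and 6.73, 6.50 and 6.81 in STAT males. Controls gave 7.04, 7.42 and 7.29 in females and 7.01, 7.20, 6.91, 6.88 and 6.94 in males. PAT male 5, at 7.16, was above 4 of the 5 control males, while PAT and STAT arrays covered much the same range. The PAT difference from control was -0.33 ± 0.09 (SE; 1.26-fold lower; adjusted p of 0.019 by limma). The call was lost without control female 2 or PAT female 3, with an adjusted p of up to 0.062.

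Tap2 was 8.80, 8.44 and 8.45 in PAT females and 8.39, 8.16, 8.35, 8.33 and 8.12 in PAT males. STAT females had 8.76, 8.72 and 8.50, and STAT males 8.39, 8.15 and 8.35. Control females had 8.84, 8.68 and 8.92, and control males 8.62, 8.93, 8.57, 8.56 and 8.51. Every PAT male and every STAT male was below every control male. Against control, PAT differed by -0.31 ± 0.08 (SE; 1.24-fold lower; adjusted p of 0.012 by limma).

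Tapbp, tapasin, gave 10.41, 10.19 and 10.42 in PAT females and 10.50, 10.45, 10.57, 10.04 and 10.33 in PAT males. STAT females gave 10.74, 10.87 and 10.73, and STAT males 10.69, 10.49 and 10.51. Controls gave 11.01, 11.00 and 10.89 in females and 10.99, 10.91, 10.67, 10.62 and 10.69 in males. The highest PAT array, 10.57, was just below the lowest control array, 10.62. The PAT difference was -0.51 ± 0.08 (SE; 1.42-fold lower; adjusted p of 0.00027 by limma), and a second, dimmer Tapbp probe set differed by -0.34 with an adjusted p of 0.02 over all probe sets.

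B2m gave 13.62, 13.50 and 13.81 in PAT females and 13.85, 14.05, 13.99, 13.58 and 13.88 in PAT males. STAT females had 13.88, 13.99 and 13.98, and STAT males 13.93, 13.59 and 13.66. Control females had 14.04, 14.02 and 14.01, and control males 14.14, 13.80, 13.95, 13.91 and 13.95. PAT females were all below control females, whereas PAT and control males overlapped. The difference averaged over the sexes was -0.23 ± 0.07 (SE; 1.17-fold lower; adjusted p of 0.047 by limma). It was no longer called in 12 of 16 fits without 1 array, with an adjusted p of up to 0.13. The second B2m probe set also differed by -0.23 (adjusted p of 0.031 over all probe sets).

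Nlrc5 is known to drive transcription of class I genes from their shared promoter boxes. Its probe set was dim, at 5.06, 4.77 and 4.47 in PAT females and 4.47 to 4.87 in PAT males. STAT arrays lay between 4.48 and 4.93, and control arrays between 4.37 and 5.01. The groups overlapped throughout, and PAT differed from control by 0.03 ± 0.10 (SE; 95% interval -0.19 to 0.24; adjusted p of 0.93 by limma). A dim probe set understates a change, so this interval describes its signal rather than the transcript.

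The dimmer probe sets of 2 of the genes did not pass the test in PAT against control. For Tap1, 3 further probe sets with mean levels of 3.28, 5.28 and 3.81 differed by -0.06, 0.06 and -0.08. For Psmb8, a probe set with a mean level of 3.94 differed by -0.15 (adjusted p of 0.29 by limma). The calls for Tap1 and Psmb8 therefore rest on their brightest probe set.

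The constitutive core of the proteasome gave no call in the same comparison. Of 14 constitutive 20S subunits, 0 were called higher and 0 lower in PAT, and their median difference was 0.02, beside -0.34 for the immunoproteasome and loading genes. By sex the median of this list was 0.13 in females and -0.09 in males, with 0 calls in either. Its mean deviation per array was 0.13 to 0.17 in PAT females and 0.00 to 0.04 in control females, with no overlap, and -0.20 to 0.06 in PAT males and -0.12 to 0.08 in control males, which overlapped. Psmb5, the chymotrypsin-like subunit, averaged 11.12 ± 0.16 in PAT and 11.18 ± 0.08 in control arrays (SD, n = 8 each), and its difference was -0.03 (95% interval -0.16 to 0.10). Psmb6 differed by -0.04 (95% interval -0.15 to 0.08) and Psmb7 by 0.14 (95% interval 0.00 to 0.28). Among 8 other activators and assembly factors, Psmg3, a chaperone of core assembly, rose by 0.32 ± 0.08 (SE; adjusted p of 0.011 by limma), and no other was called. Psme3, the PA28 gamma subunit of nuclear proteasomes, differed by 0.26 (adjusted p of 0.06).

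Each inducible subunit was then set against the constitutive one it replaces, within each array. These differences carry the unequal probes of the 2 genes, so only their change between groups is read. Psmb8 minus Psmb5 was -2.79 to -1.79 in PAT and -2.00 to -1.26 in control arrays, a change of -0.73 (two-sided exact permutation within sexes over 5040 arrangements, p = 0.00079, adjusted over 6 such tests 0.0016). Psmb9 minus Psmb6 was -2.67 to -2.31 in PAT and -2.19 to -1.82 in control arrays, a change of -0.46 with no overlap. Psmb10 minus Psmb7 was 1.36 to 1.95 in PAT and 2.03 to 2.57 in control arrays, a change of -0.58, also with no overlap. Both of those gave an exact p of 0.0004, the smallest that 5040 arrangements allow, and 0.0012 after adjustment. Without PAT female 1 the changes were -0.88, -0.50 and -0.58, each with an exact p of 0.0004. These tests were chosen after results of the same arrays were known.

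**Figure D2:**
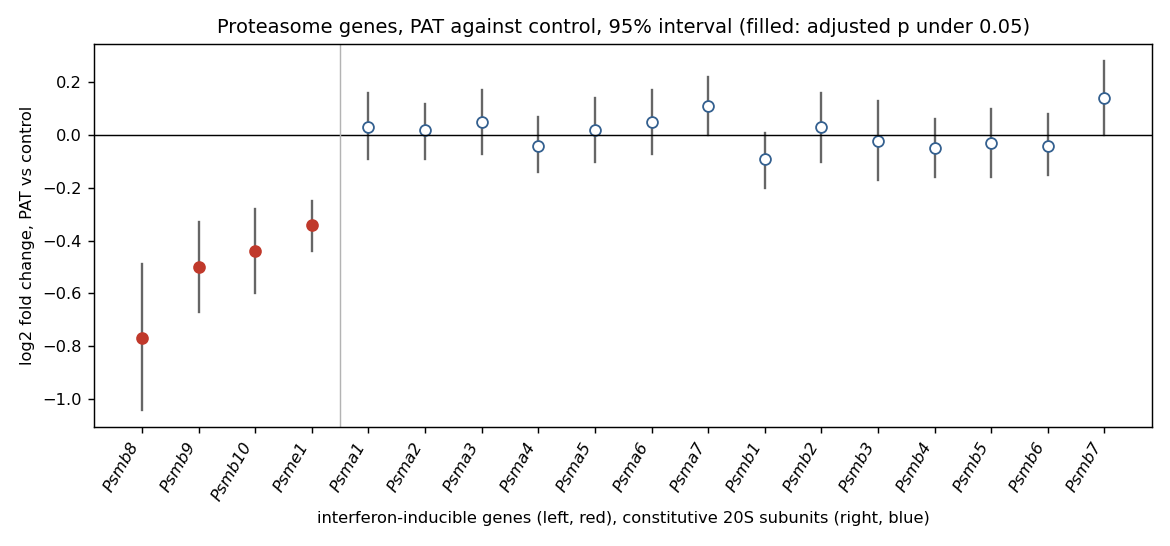
Log2 fold change with 95% interval for proteasome genes, PAT against control, averaged over the sexes, with filled points for an adjusted p under 0.05. The inducible subunits and Psme1, at the left, lie below 0, while Psmb5, Psmb6 and Psmb7, among the constitutive subunits at the right, lie near 0.

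MHC class I heavy chains, which B2m pairs with, had no call in PAT. Of 18 listed heavy chain and class I-like genes, 10 had a probe set of their own, 0 were called in either direction, and their median difference was -0.12. H2-D1 averaged 12.79 ± 0.11 in PAT and 13.02 ± 0.08 in control arrays (SD, n = 8 each) and H2-K1 averaged 12.66 ± 0.13 in PAT and 12.88 ± 0.06 in control arrays. PAT and control arrays of H2-D1 did not overlap, yet its adjusted p was 0.071 by limma, and H2-K1 had 0.081. The model takes 1 spread from all 6 groups, STAT included. In STAT males the SD was 0.44 for H2-D1 and 0.41 for H2-K1. In the PAT and control groups of each sex it was 0.06 to 0.09 for H2-D1 and 0.03 to 0.13 for H2-K1. The test of these 2 genes without STAT males 2 and 3 is not given. H2-Bl differed by -0.54 ± 0.18 (SE; adjusted p of 0.058) and H2-T3 by -0.26 (0.095). Some heavy chain genes are close in sequence, so a probe set named for one of them may also bind transcripts of another.

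A list of 9 other genes was drawn up for peptide trimming and loading, and it also held the chaperone Hspa5. In PAT 2 of them were called higher and 1 lower, beside 4.61% and 6.38% of all genes. Tapbpl (TAPBPR), a peptide editor related to tapasin, fell to 8.89 ± 0.23 in PAT, against 9.44 ± 0.15 in control arrays (SD, n = 8 each), a change of -0.55 ± 0.10 (SE; adjusted p of 0.0015 by limma) with no overlap. Hspa5 (BiP), the chaperone that holds unfolded chains in the endoplasmic reticulum, moved the other way, to 13.55 ± 0.11 in PAT, against 13.07 ± 0.16 in control arrays (SD, n = 8 each), a change of 0.46 ± 0.07 (SE; adjusted p of 0.00031 by limma). Calr, calreticulin, which is part of the peptide loading complex, rose by 0.25 ± 0.08 (SE; adjusted p of 0.038). Erap1, which trims peptides in the endoplasmic reticulum, differed by -0.16 (adjusted p of 0.065).

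**Figure D3:**
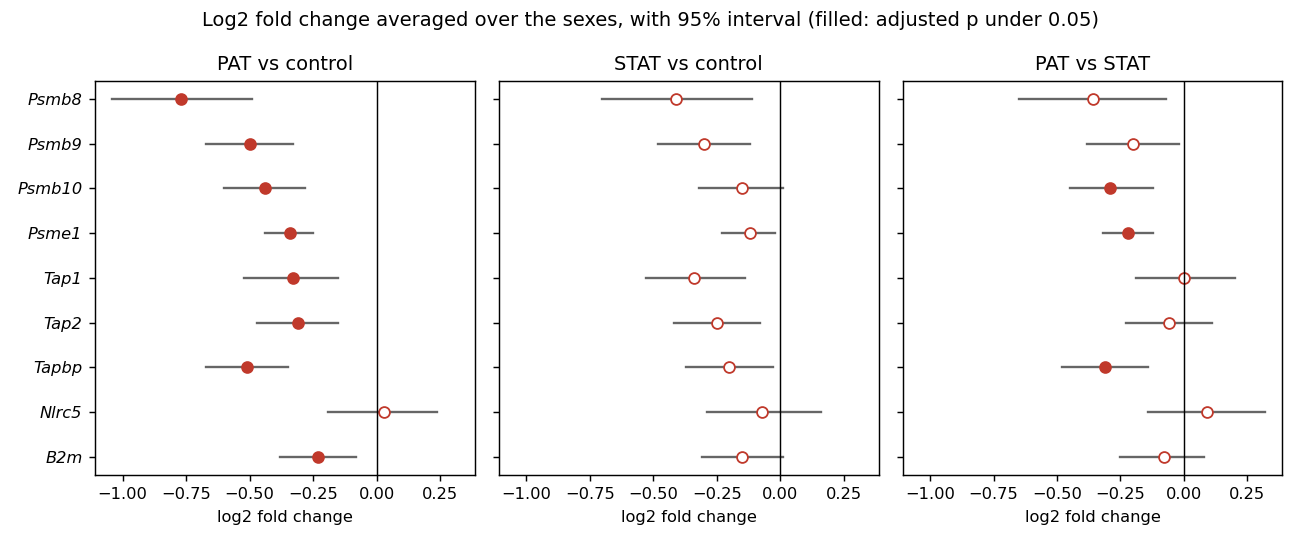
Log2 fold change with 95% interval of the 9 genes for PAT against control, STAT against control and PAT against STAT, averaged over the sexes, with filled points for an adjusted p under 0.05. The PAT intervals exclude 0 for all genes but Nlrc5, and in the last comparison Psmb10, Psme1 and Tapbp are filled.

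Of 25 listed genes of interferon signalling upstream of class I, 24 were measured. The list also held a feedback inhibitor, Socs1, and promoter-binding factors such as Nfyb, the 2 genes called higher in PAT. Another 6 were called lower, and the median was -0.06. Of all genes, 6.38% were called lower and 4.61% higher. Irf1, an interferon-induced transcription factor of class I genes, had the greatest fall. It averaged 9.68 ± 0.39 in PAT, 10.58 ± 0.34 in STAT and 10.83 ± 0.26 in control arrays (SD, n = 8, 6 and 8). The PAT arrays ran from 8.97 to 10.25, the STAT arrays from 10.11 to 10.94 and the control arrays from 10.51 to 11.23. All PAT arrays were below all control arrays, and the change was -1.16 ± 0.14 (SE; adjusted p of 3.1e-05 by limma).

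Irf9 and Stat2, partners in the complex that type I interferon activates, fell by 0.57 and 0.40 on the log2 scale (adjusted p of 0.0023 and 0.014 by limma). Jak2, a kinase of the interferon gamma receptor, fell by 0.31 (adjusted p of 0.014), and Ifngr2, a chain of that receptor, by 0.32 (0.032). Rfx5, a factor that binds class I and class II promoters, fell by 0.25 (adjusted p of 0.043). Nfyb, a subunit of the NF-Y complex, rose by 0.25 (0.019) and Socs1, a feedback inhibitor of this signalling, rose by 0.30 (0.042). The ligand gene Ifng was dim in all groups and differed by -0.06 (95% interval -0.26 to 0.13).

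**Figure D4:**
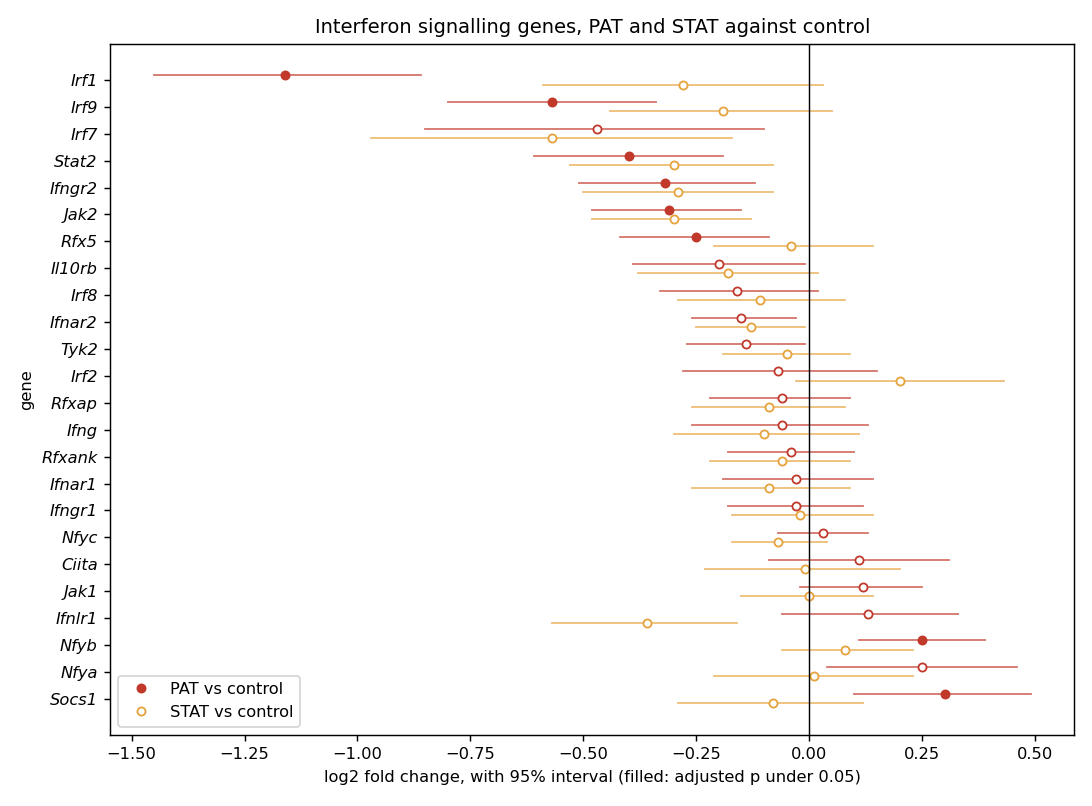
Log2 fold change with 95% interval of the interferon signalling genes, PAT and STAT each against control, averaged over the sexes, with filled points for an adjusted p under 0.05. Irf1 in PAT, at -1.16, lies farthest from 0, and no STAT point is filled.

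STAT ileum gave lower values than control ileum for all 9 genes, but 0 were called. No gene of the 18193 was called in that comparison (0%), with limma, and at an unadjusted p under 0.05 there were 6 of the 9 genes and 2391 genes in all, which is 13.1%. The differences ran from -0.41 (Psmb8) to -0.07 (Nlrc5), with a median of -0.20, against -0.004 over all genes. Tap1 differed by -0.34 ± 0.09 (SE; 95% interval -0.53 to -0.14; adjusted p of 0.22 by limma) and Psmb9 by -0.30 ± 0.09 (95% interval -0.48 to -0.12; adjusted p of 0.22). Psmb8 differed by -0.41 (95% interval -0.70 to -0.11), Tap2 by -0.25 (-0.42 to -0.08), Tapbp by -0.20 (-0.37 to -0.03) and Psme1 by -0.12 (-0.23 to -0.02). The intervals of Psmb10 (-0.32 to 0.01) and B2m (-0.31 to 0.01) included 0. Leaving out STAT male 1 raised the count to 2, namely Psmb9 and Tap1.

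In the counterpart test, Psmb9 minus Psmb6 changed by -0.30 in STAT (two-sided exact permutation p = 0.0018, adjusted 0.0027) and Psmb8 minus Psmb5 by -0.39 (exact p = 0.014, adjusted 0.017). Psmb10 minus Psmb7 changed by -0.15 (exact p = 0.094). Without STAT males 2 and 3, over 120 arrangements, Psmb9 minus Psmb6 changed by -0.30 (exact p = 0.017), Psmb8 minus Psmb5 by -0.36 (exact p = 0.067) and Psmb10 minus Psmb7 by -0.08 (exact p = 0.48). PAT and STAT were compared with the same control arrays. None of the proteasome, heavy chain, loading or interferon genes on the lists was called in STAT. Irf1 differed by -0.28 ± 0.15 (SE; adjusted p of 0.42 by limma), Jak2 by -0.30 and Ifnlr1, a receptor chain for type III interferon, by -0.36 (both 0.22). Without STAT males 2 and 3 these were -0.09, -0.15 and -0.21 (each with an adjusted p of 1).

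Without STAT males 2 and 3 the count stayed at 0, 2 of the 9 genes were at an unadjusted p under 0.05 (4.47% of all genes), and the 9 differences lay between -0.31 (Tap1) and -0.02 (Psmb10). Psmb8 then differed by -0.27 and Psmb9 by -0.25. In males alone, Psmb10 differed from control by 0.09 without them, against -0.17 with them.

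PAT was lower than STAT for 3 of the 9 genes, where 5.88% of all genes were called in either direction and 2.98% lower. Psme1 differed by -0.22 ± 0.05 (SE; adjusted p of 0.0093 by limma), and its PAT and STAT arrays did not overlap, as in 0.803% of all genes. Tapbp differed by -0.31 ± 0.08 (adjusted p of 0.027) and Psmb10 by -0.29 ± 0.08 (0.034). The second Tapbp probe set did not show this difference, with -0.05 (95% interval -0.24 to 0.15; adjusted p of 0.86 over all probe sets). Psmb8 differed by -0.36 (95% interval -0.65 to -0.07; 0.14) and Psmb9 by -0.20 (-0.38 to -0.02; 0.19). Tap1 gave 0.00 (95% interval -0.19 to 0.20) and Tap2 -0.06 (-0.23 to 0.11). B2m differed by -0.08 (95% interval -0.25 to 0.08). Without STAT female 1 the count was 1, Psme1, and without STAT males 2 and 3 it was 2, Psmb10 and Psme1. Of 14 runs that left out 1 array, the call was lost in 6 for Psmb10, 3 for Tapbp and 0 for Psme1. With the sexes weighted equally, 7 of the 9 genes were lower in PAT than in STAT, Tap1 and Nlrc5 being the exceptions. In males the mean was higher in PAT than in STAT for B2m (13.87 and 13.73) and Tap1 (6.72 and 6.68), so the order of the means was not the same in both sexes. These gaps in males were not tested. STAT male 1 alone, at 13.93 for B2m and 6.73 for Tap1, was above the PAT male mean of each gene.

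By sex, 6 of the 9 genes were called lower in PAT males and 2 in PAT females. In males 9.02% of all genes were called, 6.68% lower, and in females 3.35%, 1.08% lower. The compared groups had 5 arrays each in males and 3 each in females. In each sex 8 of the 9 differences were negative, with a median of -0.37 in males and -0.38 in females. At an unadjusted p under 0.05 in limma there were 7 of the 9 genes in each sex. Of all genes, 25.0% in males and 20.9% in females were at that level. In males Psmb8 differed by -0.78, Psmb9 by -0.61, Psmb10 by -0.50, Psme1 by -0.34, Tap2 by -0.37 and Tapbp by -0.39, with limma adjusted p-values between 0.00078 and 0.019. The Tap2 call in males was lost without control male 2, PAT male 2 or PAT male 5 (adjusted p of up to 0.06), and those of Tap2 and Tapbp were each lost under 2 of 11 other settings. Tap1 in males differed by -0.27 (0.13) and B2m by -0.08 (0.6). In females Tapbp differed by -0.63 (adjusted p of 0.011) and Psme1 by -0.35 (0.015), and Psmb8 at -0.75 missed the threshold with 0.051. The arrays did not overlap for 6 genes in each sex, where 13.2% of all genes were so separated in females and 5.29% in males with PAT lower. The female count was 0 without PAT female 2, 1 without control female 2 or 3, and 3 without PAT female 1.

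No difference of the PAT effect between the sexes was called for any of the 9 genes, with 0 at an unadjusted p under 0.05 in limma. Of all genes, 0.00550% were called and 18.6% were at that unadjusted level. The effect in females minus that in males ran from -0.30 for B2m (95% interval -0.61 to 0.01) to 0.22 for Psmb9 (-0.12 to 0.56). In STAT females and STAT males 0 genes were called in either sex (0% of all genes), with 2 and 6 of the 9 at an unadjusted p under 0.05. Of all genes, 3.31% and 15.7% were at that level in STAT females and STAT males. STAT and control arrays did not overlap for 5 of the 9 genes in females and 4 in males, beside 5.10% and 3.64% of all genes with STAT lower. Without STAT males 2 and 3, which leaves 1 STAT male, 0 of the 9 genes were at an unadjusted p under 0.05 in males. The STAT effect also had 0 calls for a difference between the sexes (0% of all genes), with or without STAT males 2 and 3, and 0 of the 9 were at an unadjusted p under 0.05, beside 3.44% of all genes. Control females were above control males for all 9 genes by 0.04 (Psme1) to 0.26 (Psmb8, Tap1), with 0 calls and 0 at an unadjusted p under 0.05, beside 0.0550% of all genes called and 12.5% at that unadjusted level.

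**Figure D5:**
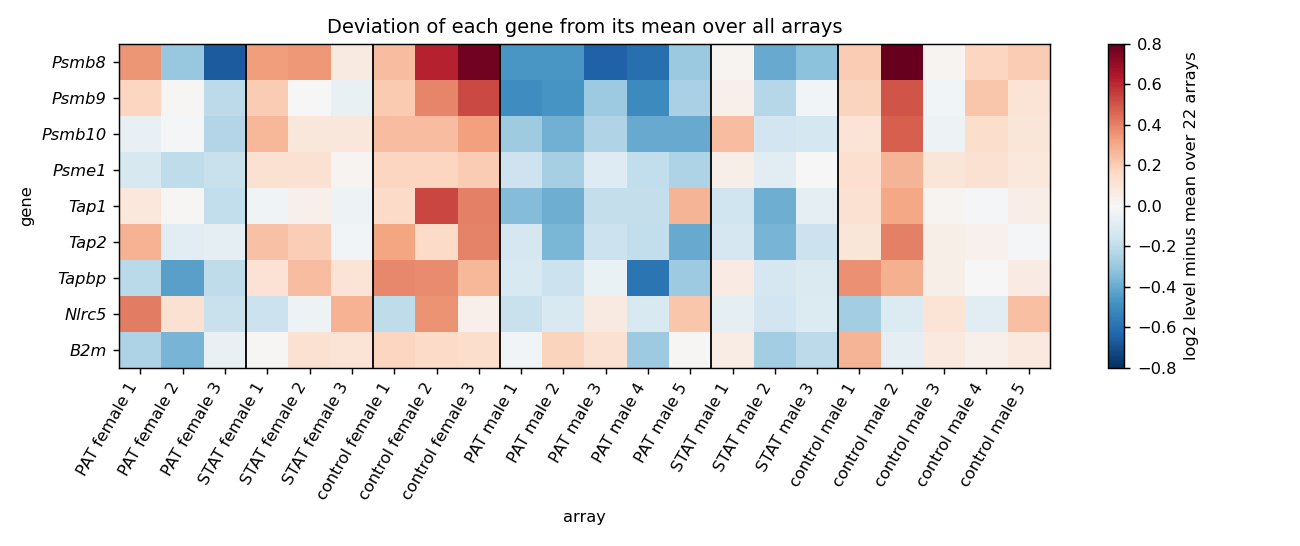
Deviation of each of the 9 genes from its mean over the 22 arrays (log2), with genes in rows and arrays in columns. Columns run from PAT through STAT to control in females, then in the same order in males. The mean of a column runs from -0.34 to 0.07 in PAT, from -0.24 to 0.12 in STAT and from 0.04 to 0.34 in control arrays.

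With the group means removed, the genes still varied together in part. Over 36 pairs and 22 arrays, Pearson correlations ran from -0.20 to 0.88, with a median of 0.29. By permutation within groups, 10 pairs passed a Benjamini-Hochberg adjusted p of 0.05, and 5 passed with Spearman. Psme1 and Tap2 had r = 0.88 (permutation p = 5e-05, adjusted 0.0018) and rho = 0.87 (p = 0.00013, adjusted 0.0047), and r = 0.87 without the 2 arrays farthest from the median of Psme1. Psmb8 and Psmb9 had r = 0.83 (permutation p = 0.00018, adjusted 0.0032) and rho = 0.79 (p = 0.00081, adjusted 0.015), and r = 0.75 without 2 arrays. Psmb9 and Tap1, which share a promoter, had r = 0.69 (permutation p = 0.00083, adjusted 0.009) and rho = 0.71 (p = 0.0013, adjusted 0.016), and r = 0.66 without 2 arrays. Tapbp and B2m had r = 0.71 (permutation p = 0.0061, adjusted 0.027), but rho = 0.57 did not pass (permutation p = 0.02, adjusted 0.085), and r was 0.50 without 2 arrays. B2m had r between -0.17 and -0.01 with all genes but Tapbp, and Nlrc5 passed with no other gene. The arrays share a normalization, and control male 2 is among the 2 arrays left out for most pairs. Pairs of genes outside the set were not tested, so it is not known whether they vary together as much.

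The genes outside the set whose values followed it best over the 22 arrays were named from the correlation with the mean of the 9 scaled genes, among 18184. They were Parp14 (r = 0.93), Ifi35 (0.91), Ifi47 (0.90), Parp9 (0.90) and Tapbpl (0.90), with Spearman's rho of 0.91 to 0.95, and no p is given since they were picked for this. The correlation includes the difference between the groups. Parp14, an ADP-ribosyltransferase, averaged 8.20 ± 0.39 in PAT and 9.39 ± 0.24 in control arrays (SD, n = 8 each), and its STAT arrays ran from 8.62 to 9.35. The 5 differed between PAT and control by -1.21 (Parp14), -0.48 (Ifi35), -0.79 (Ifi47), -0.79 (Parp9) and -0.55 (Tapbpl).

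Immune and epithelial markers were measured beside these values. Of 12 T cell and intraepithelial lymphocyte markers, 2 fell in PAT, Gzma by 1.58 and Gzmb by 0.90 on the log2 scale (adjusted p of 0.00033 and 0.0029 by limma), the granzymes of cytotoxic cells. Cd3e differed by 0.01 and Cd8a by -0.02. The mean deviation of the list was -0.34 to 0.24 in PAT, -0.30 to 0.12 in STAT and 0.03 to 0.26 in control arrays. The 0.24 was PAT female 1, and all other PAT arrays, at -0.34 to 0.02, were below every control array. These array means include Gzma and Gzmb and were not computed without them. The median difference over the 12 markers was -0.04 in PAT, and 10 of them were not called. Of 8 macrophage and dendritic cell markers, Cd14 fell by 0.59 (adjusted p of 0.013). In the same comparison 6.38% of all genes were called lower and 4.61% higher. None of 5 B cell, 4 general leukocyte, 9 epithelial, 5 smooth muscle or 2 adipocyte markers was called, and 2 of 3 ileal enterocyte markers, Fabp6 and Fgf15, rose. The mean deviation of the ileal list was 0.14 to 1.49 in PAT, -1.03 to 0.16 in STAT and -0.59 to 0.34 in control arrays. STAT males 2 and 3 had -1.03 and -1.02.

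The epithelial list had a mean deviation of -0.09 to 0.21 in PAT, -0.34 to 0.07 in STAT and -0.05 to 0.08 in control arrays. The general leukocyte list ran from -0.61 to 1.58 in PAT, -0.38 to 0.31 in STAT and -0.62 to 0.30 in control arrays. PAT female 1, the array with the highest leukocyte and B cell means, was also the PAT array with the highest Psmb8, Psmb9 and Tap2. The Gapdh 3′ minus 5′ difference was -0.23 to -0.03 in PAT, -0.25 to -0.04 in STAT and -0.26 to -0.09 in control arrays. The part of these cell types and of RNA quality in the differences of the class I genes was not tested. With the Gapdh difference as a covariate 6 of the 9 genes were called lower in PAT averaged over the sexes (not Tap2 or B2m), and with the beta-actin difference 7 (not B2m).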

How the data were processed

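RNA of 22 terminal ileum samples was hybridized to Affymetrix arrays of 1 colour. Per the submitters' processing notes, the authors made the deposited log2 values per probe set with affy's RMA, in versions not given in the sources used here. RMA subtracts background, forces arrays to one distribution and summarises probes, and can compress small or dim differences. The table held 45101 probe sets: 64 controls, 34945 with 1 gene symbol in the platform annotation, 932 with several (not named as 1 gene) and 9160 with none. Column medians were 5.68 to 5.79.

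Each gene was represented by its probe set of highest mean. A model with 1 mean for each of the 6 groups of treatment and sex was fitted with limma 3.58.1 (R 4.3.3) to 18193 genes on all arrays, with 16 residual and 4.88 prior degrees of freedom. P-values were adjusted by Benjamini-Hochberg over all genes and called under 0.05. Averaged comparisons weight females and males equally. The differences between an inducible subunit and its constitutive counterpart were tested by exact permutation within sexes, and correlations with 100000 permutations. The number of arrays limits the precision. The script was tested on simulated data.

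The genes described and the gene lists were chosen with earlier results of these data known. Named from each list were up to 4 genes of smallest p in PAT against control and up to 2 in STAT against control, averaged over the sexes, with Ifng and every called gene of the interferon list added after their values were seen, and always Psmb5, Psmb6 and Psmb7. The alternatives were another probe set rule, normalization, filter, model, array quality term or variance estimate, and each array left out in turn. The term for arrays with later title numbers, the counterpart test and its repeats without STAT males 2 and 3 or PAT female 1 were added after seeing the data.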

Additional observations from a re-analysis of the deposited data

Results flagged for a closer look

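Control male 2 stood apart from the other 4 control males in 3 of the 9 measured genes, where its gap to the nearest array took up most of the group's range. It gave 9.91 for Psmb8 beside a next highest value of 9.31, 11.88 for Psme1 beside 11.74, and 8.93 for Tap2 beside 8.62. The check covered 18 combinations of gene and group, and chance alone marks about 1 in 20. The cause was not tested.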

How the results depend on the processing

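The calls of Psmb8, Psmb9, Psmb10, Psme1 and Tapbp in PAT against control, averaged over the sexes, held in all 16 runs that left out 1 array and under all 12 other settings, while the call of B2m was lost under 6 of those settings. Leaving out 1 array gave 6 to 8 called genes there, 5 to 6 in males and 0 to 3 in females. It gave 1 to 4 for PAT against STAT, 0 to 2 for STAT against control averaged over the sexes and 0 to 1 in males. In PAT females the count was 4 over genes with a mean of at least 6, 1 with only the groups compared, 7 with array weights, 0 with the Gapdh covariate and 4 with trended robust variances, against 2 in the model described. PAT against STAT gave 1 with only the groups compared. Array weights gave 6 calls for STAT against control and 5 in males, from a fit in which STAT male 3 had a weight of 2.82 and STAT male 1 of 0.32.

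Over settings other than leaving out 1 array, 968 of 1043 single-gene results kept direction and call, 20 lost the call, 24 gained it and 31 changed sign. Over runs without 1 array the numbers were 926, 30, 7 and 45 of 1008. Apart from those of Psmb10 in STAT males, the changes of sign were in Nlrc5, in Tap1 for PAT against STAT and in differences between the sexes, and none was in a called result. The cause was not tested.

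With a gene's probe sets averaged, Tap1 in PAT against STAT was -0.01, the PAT sex difference of Psmb8 -0.07 and the STAT sex difference of Tap1 0.00. With quantile normalization repeated, Nlrc5 in PAT males was -0.06, the PAT sex difference -0.09 for Psmb8 and -0.03 for Tap2, and the STAT sex difference -0.01 for Psmb10 and -0.03 for Tapbp. With columns centred, Nlrc5 in PAT males was -0.02, Tap1 in PAT against STAT 0.00 and the PAT sex difference of Psme1 0.01. With array weights, Nlrc5 in PAT was -0.05 averaged, -0.04 in females and -0.05 in males, Tap1 in PAT against STAT -0.02 and the PAT sex difference of Psmb8 -0.11. With the Gapdh covariate, Nlrc5 in PAT males was -0.02, Tap1 in PAT against STAT 0.00, and the STAT sex difference -0.06 for Psmb10 and -0.06 for Tapbp. With the beta-actin covariate, Nlrc5 in PAT males was 0.00, Psmb10 in STAT males 0.04, and the STAT sex difference -0.12 for Psmb10, -0.13 for Tapbp and -0.02 for B2m. Without STAT males 2 and 3, Psmb10 in STAT males was 0.09, Tap1 in PAT against STAT -0.02, and the STAT sex difference -0.04 for Psmb8, -0.22 for Psmb10, -0.10 for Tapbp and -0.06 for B2m.

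Leaving out 1 array, Nlrc5 ran from -0.05 to 0.10 in PAT, -0.10 to 0.20 in PAT females, -0.06 to 0.07 in PAT males, -0.13 to 0.01 in STAT, -0.18 to 0.10 in STAT females and -0.05 to 0.23 between control females and males. Tap1 in PAT against STAT ran from -0.05 to 0.04. PAT sex differences ran from -0.25 to 0.26 for Psmb8, -0.05 to 0.00 for Psme1, 0.00 to 0.18 for Tap2 and -0.10 to 0.20 for Nlrc5. STAT sex differences ran from -0.14 to 0.02 for Psmb9, -0.04 to 0.17 for Psmb10, -0.17 to 0.03 for Tap1, -0.03 to 0.09 for Tapbp and -0.09 to 0.18 for Nlrc5. Nlrc5 gave no value over genes with a mean of at least 6. No paired analysis was possible because the labels give the groups no shared replicate numbers.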
